A study of Mus musculus with 6 samples.

Results

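The imprinted genes described here are 34 genes with known parent-of-origin expression in mouse, chosen by symbol from the 24015 genes counted in arcuate nucleus (ARC) RNA. By textbook assignment 19 are expressed from the paternal copy, 12 from the maternal copy or with a maternal bias in brain, and 3 (*Gnas*, *Grb10* and *Blcap*) from a copy that depends on promoter or tissue. The counts do not separate the alleles, so parent of origin was not measured, and a change in a gene's total cannot be assigned to a copy. The assignment need not hold in every tissue or cell type.

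Imprinted genes are expressed mainly from the copy inherited from 1 parent, because methylation laid down in that parent's germ line marks control regions that are read differently on the 2 copies. They lie in clusters in which protein-coding genes and long noncoding RNAs share a control region, and members transcribed from the paternal and from the maternal copy are often neighbours. Many are active in the hypothalamus and have been linked there to feeding, growth and maternal care, and loss of the paternal copies of the Prader-Willi region changes appetite and body weight.

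ARC was microdissected from 3 control and 3 mutant adult females, whose mixed background the labels give as CD-1, 129P2 and C57BL/6 and the study's methods as CD-1 and 129P2. Both genotypes carried floxed *Esr1* alleles (Esr1fl/fl), and the mutants (Esr1fl/fl;Nkx2-1-Cre) also carried a Cre driven by *Nkx2-1*, which is active across the medial basal hypothalamus and not in the ARC alone. The comparison asks what loss of estrogen receptor alpha does to transcripts of the ARC in females. Each library was an amplified RNA sample of bulk tissue, in which fewer cells of a type and less RNA per cell cannot be told apart.

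The libraries held 11792440 to 17877137 counts on genes, and 3 counts corresponded to 0.175 to 0.248 CPM (the count relative to the library size after TMM scaling, the unit of all levels here unless stated). *Esr1* was measured at 64.5, 57.5 and 48.5 CPM in controls and 11.8, 9.55 and 7.06 CPM in mutants (-2.59 ± 0.18 in log2 fold change, SE, adjusted p = 0.000884, edgeR's quasi-likelihood test with Benjamini-Hochberg adjustment). Fold changes are of mutant over control throughout, and the values of a genotype are given in the order of replicates 1, 2 and 3. All 12 ARC neuron markers had counts in every library, with sums of 1207, 1209 and 1149 CPM in the controls and 1783, 1256 and 1345 CPM in the mutants. In that list *Tac2*, *Kiss1* and *Cartpt* were higher and *Slc6a3* was lower in every mutant, so the sum does not measure the amount of ARC tissue alone. Over all tested genes, 7.88% were higher and 7.88% lower in every mutant. Markers of neighbouring tissue and of glia also differed between libraries. The summed level of 8 ventromedial nucleus markers was 235, 496 and 381 CPM in the controls and 242, 553 and 718 CPM in the mutants, and without *Slc17a6*, a glutamate transporter gene that arcuate neurons also express, 99.4, 224 and 161 CPM against 119, 276 and 347 CPM. That of 8 oligodendrocyte markers was 630 to 1172 CPM in the controls and 1518 to 1677 CPM in the mutants, and that of 6 microglia markers was 138 to 153 CPM against 177 to 186 CPM. All 8 oligodendrocyte markers were higher in every mutant, against 7.88% of all tested genes. Of these 8, *Cldn11* alone passed an adjusted p of 0.05 (1.27 ± 0.17 in log2 fold change, SE, adjusted p = 0.0313, edgeR). Of the 6 microglia markers, 2 were higher in every mutant. A difference in dissection and an effect of genotype on these cells cannot be told apart. The part of these cell types in the results on imprinted genes was not tested beyond the values given beside them.

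Many of these imprinted transcripts were abundant in the ARC. The list was drawn up as imprinted genes many of which are high in hypothalamus, so their levels do not describe imprinted genes in general. The control means of 39 other imprinted genes tested, described further on, ran from 0.406 CPM (*Dio3*) to 896 CPM (*Ppp1r9a*). The 34 genes together took 1.90%, 1.93% and 1.87% of all counts in the controls and 1.93%, 1.63% and 1.67% in the mutants. Per kilobase of exon, 16 of the tested genes stood at or above the 90th percentile of the 13956 tested genes with a known length, and the median of those 13956 genes was 5.77 RPKM (CPM per kilobase of exon). The highest control means were those of *Ndn* at 393 ± 8.12 RPKM (SD, n = 3), *Nap1l5* at 324 ± 208 RPKM, *Peg10* at 293 ± 20.3 RPKM, *Peg3* at 271 ± 20.3 RPKM, *Nnat* at 269 ± 25.7 RPKM, *Gnas* at 254 ± 7.28 RPKM, *Impact* at 250 ± 27.0 RPKM and *Rasgrf1* at 219 ± 20.6 RPKM. *Ndn* stood above the genes after *Nap1l5* in this order. Those genes, from *Peg10* to *Rasgrf1*, each overlapped within their SDs with at least 1 other of them. The wide spread of *Nap1l5* came from 1 library described further on. All 8 are paternally expressed except *Gnas*. Of the maternally expressed genes, the noncoding RNA *Meg3* was the highest at 118 ± 10.7 RPKM. The order depends on the length used. With the longest transcript in place of all exons, the control levels of *Gnas* and *Peg3* were 721 and 414 RPKM in place of 254 and 271, both then above that of *Ndn* at 393 RPKM.

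**Figure D1:**
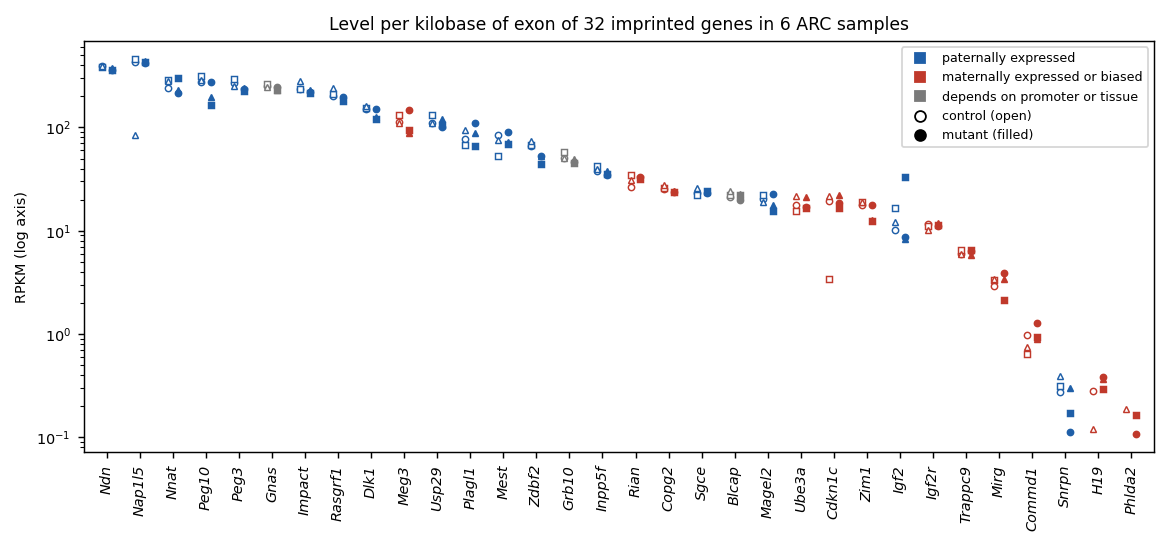
Level per kilobase of exon (RPKM, log axis) of the 32 imprinted genes with a known length in each of the 6 samples, ordered by mean level, with open symbols for controls, filled symbols for mutants, and circles, squares and triangles for replicates 1, 2 and 3. Values of 0 (in *H19* and *Phlda2*) cannot be drawn on the log axis, and single symbols far from the rest are seen in *Nap1l5*, *Cdkn1c* and *Igf2*.

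At the other end, 3 members did not pass the filter on low counts and were not tested. *Phlda2*, a growth-restraining gene best known from placenta, had counts of 0, 0 and 2 in the controls and 1, 2 and 0 in the mutants. *Snrpn*, which encodes the brain splicing protein SmN, had 9, 12 and 12 counts in the controls and 3, 6 and 10 in the mutants, and *Snurf*, the upstream reading frame of the same transcript, had 0, 1 and 0 against 0, 0 and 2. These values are low for a transcript that neurons make in quantity. *Snurf* and *Snrpn* share exons, and RefSeq gives them 1 identical window of 250 bases before to 50 after the start (GRCm38.p6, chr7:60005150-60005449, minus strand), shown here because both names have this start. CG pairs, the sites at which imprints are methylated, are in capitals.
Snurf and Snrpn: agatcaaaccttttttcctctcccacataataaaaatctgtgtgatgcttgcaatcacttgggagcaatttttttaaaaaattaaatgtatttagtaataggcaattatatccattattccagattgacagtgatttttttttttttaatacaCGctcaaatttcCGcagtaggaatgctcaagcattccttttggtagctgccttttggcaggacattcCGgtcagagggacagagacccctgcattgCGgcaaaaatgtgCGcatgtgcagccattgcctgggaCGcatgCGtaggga
How the authors' counting treated reads that fall on more than 1 gene is not given in the sources used here, so the levels of *Snrpn* and *Snurf* are uncertain, and no change in them can be read from these counts.

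In mutant ARC no tested imprinted gene passed the threshold of edgeR's quasi-likelihood test. By edgeR, 0 of the 31 tested members reached an adjusted p under 0.05, against 18 of 15236 genes or 0.118%. Before adjustment 6 members had a p-value under 0.05 (*Zdbf2*, *Zim1*, *Peg10*, *Dlk1*, *Rasgrf1* and *Peg3*), all lower in the mutants, against 611 genes or 4.01% lower among all tested. Of these 6, all but *Zim1* are at 100 CPM or more, where 8.88% of all genes were lower at that p. No member was higher at that p, against 4.84% of all genes. In 8 members every mutant lay below every control (*Zdbf2*, *Rasgrf1*, *Peg3*, *Impact*, *Grb10*, *Copg2*, *Gnas* and *Ndn*), against 7.88% of all genes, and in 1 member, *H19*, every mutant lay above every control, also against 7.88%. All 8 are among the 20 members at 100 CPM or more, and of all genes at that level 16.8% were lower in every mutant.

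The fold change was below 0 in 20 of the 31 members (64.5%), with a median log2 fold change of -0.10, whereas over all tested genes 49.0% were below 0 with a median of 0.0036. Abundant genes as a whole leaned the same way. Of the 2467 genes at 100 CPM or more, 68.3% had a fold change below 0, with a median of -0.055, and of the 20 members at that level 15 (75%) did, with a median of -0.13. Of the 17 tested paternally expressed genes, 13 were below 0, with a median of -0.15. Of the 11 maternally expressed ones, 4 were below 0, with a median of 0.016. The 3 genes that depend on promoter or tissue were all below 0, with a median of -0.11. The classes also differed in level, and abundant genes leaned below 0. All tested paternally expressed genes but *Magel2*, *Igf2* and *Sgce* were at 100 CPM or more. Of the maternally expressed ones, only *Meg3*, *Rian*, *Igf2r* and *Copg2* were. The difference between the parental classes was not tested, because the members were chosen with results of these data known, and it cannot be told apart from the difference in level.

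The summed level of the 19 paternally expressed genes was 12670, 13420 and 12731 CPM in the controls and 12130, 10678 and 11401 CPM in the mutants, so that each mutant lay below each control. The mean was 12940 ± 417 CPM (SD, n = 3) in the controls and 11403 ± 726 CPM in the mutants, a sum to which *Peg3* and *Peg10* gave the most. That of the 12 maternally expressed genes was 2858 ± 195 CPM in the controls and 2727 ± 611 CPM in the mutants, and the genotypes overlapped. The oligodendrocyte sums were higher in the same mutant libraries. A set of 6 pan-neuronal markers summed to 4248, 5431 and 5226 CPM in the controls and 4425, 5930 and 5708 CPM in the mutants. Its largest part was *Snap25*, at 2402, 3092 and 3033 CPM against 2688, 3849 and 3388 CPM. The log2 fold change was 0.22 for *Snap25*, 0.055 for *Rbfox3*, 0.089 for *Tubb3*, 0.098 for *Stmn2*, -0.12 for *Map2* and -0.039 for *Syt1*. All 6 overlapped between genotypes. Of the 2 markers of GABA neurons in the same list, *Gad2* overlapped between genotypes and *Gad1*, at 222, 204 and 216 CPM against 197, 160 and 149 CPM, was lower in every mutant (adjusted p = 0.328, edgeR).

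**Figure D2:**
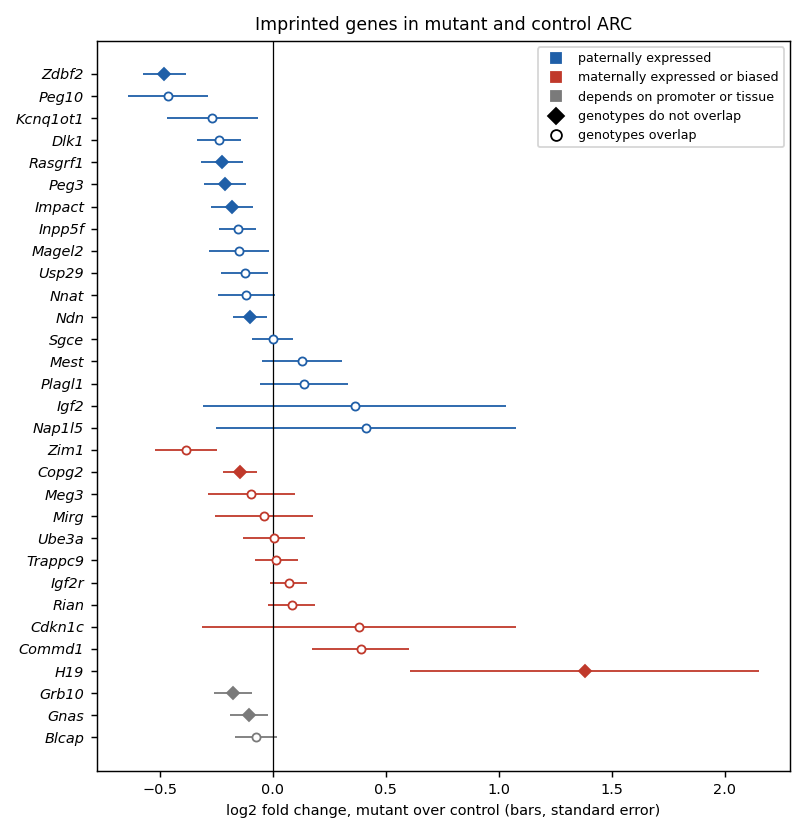
Log2 fold change of mutant over control for the 31 tested imprinted genes, with bars for the standard error derived from edgeR's test statistic, grouped by parent of origin and ordered within each group. Filled diamonds mark the 9 genes whose genotypes do not overlap, 8 of them below 0, and the bars of *Nap1l5*, *Igf2*, *Cdkn1c* and *H19* are the widest.

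*Zdbf2*, a paternally expressed zinc finger gene linked to growth after birth (chromosome 1, 63319839 to 63361150, plus strand, NCBIM37), showed the largest difference relative to its error. It was measured at 831, 864 and 939 CPM in controls and 663, 561 and 664 CPM in mutants. The mutants were all below the lowest control, with mutant replicate 2 the lowest. The mean was 878 ± 55.1 CPM (SD, n = 3) in the controls and 629 ± 59.1 CPM in the mutants, 71.7% of the control level. Its log2 fold change in edgeR was -0.48 ± 0.095 (SE), with adjusted p = 0.0892, which missed the threshold. The call depended on the test and the genes tested. DESeq2 gave an adjusted p of 0.000446, edgeR without its filter, on every gene with a count, gave 0.0150, and edgeR with the replicate number as a block gave 0.0299. *Zdbf2* was the 1 member called in each of these 3 fits, in which 1.27%, 0.471% and 0.807% of all genes were called. Adjusted p-values over all alternatives ran from 0.000446 to 0.469, the highest without mutant replicate 2, and the fold change stayed between -0.56 and -0.41. RefSeq lists 2 start windows for *Zdbf2* (GRCm38.p6, plus strand), an upstream one at chr1:63200108-63200407 and a downstream one at chr1:63273019-63273318, both shown with CG pairs in capitals because they differ in CG content, with 15 and 38 pairs.
Zdbf2, upstream start: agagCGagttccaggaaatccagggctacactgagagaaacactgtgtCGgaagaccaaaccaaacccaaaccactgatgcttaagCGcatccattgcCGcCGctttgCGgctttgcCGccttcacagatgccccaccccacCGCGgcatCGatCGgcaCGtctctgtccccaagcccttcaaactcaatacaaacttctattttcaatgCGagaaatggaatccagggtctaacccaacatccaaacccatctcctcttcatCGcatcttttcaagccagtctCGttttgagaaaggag
Zdbf2, downstream start: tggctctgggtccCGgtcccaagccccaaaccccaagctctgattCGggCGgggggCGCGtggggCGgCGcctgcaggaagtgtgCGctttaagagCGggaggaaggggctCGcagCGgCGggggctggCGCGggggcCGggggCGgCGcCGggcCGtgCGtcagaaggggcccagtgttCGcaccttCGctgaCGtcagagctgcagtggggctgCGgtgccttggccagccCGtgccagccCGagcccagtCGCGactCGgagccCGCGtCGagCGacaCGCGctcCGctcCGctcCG
The counts are summed over the gene and do not tell the 2 starts apart.

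**Figure D3:**
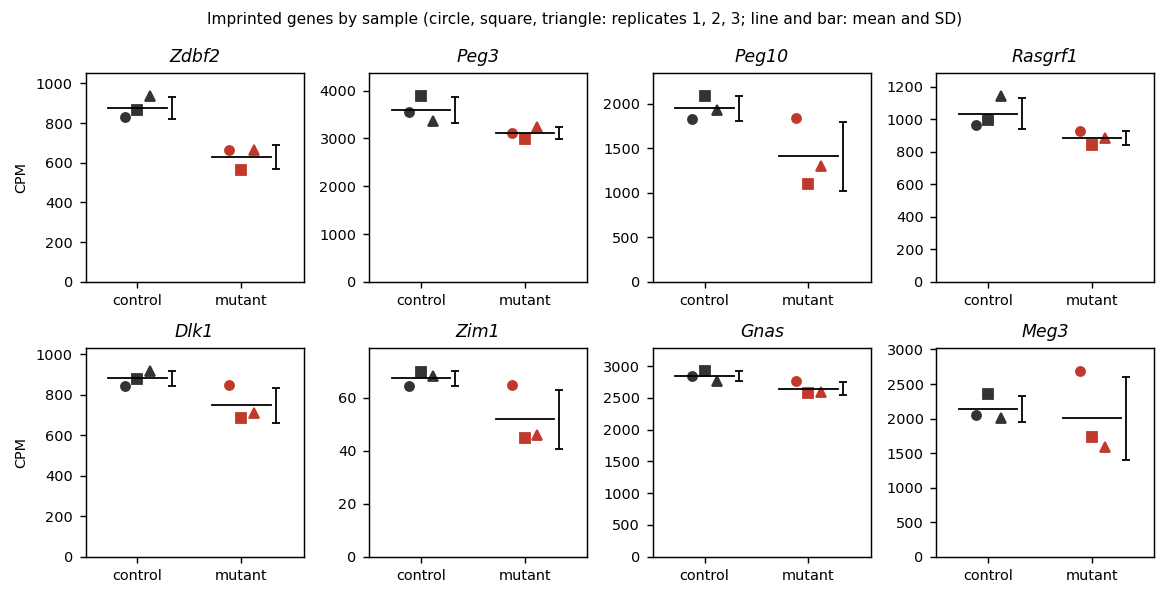
Level (CPM, axis from 0) of 8 imprinted genes in each control (dark) and mutant (red) library, with circles, squares and triangles for replicates 1, 2 and 3, and a line and bar for mean and SD. The genotypes are apart in *Zdbf2*, *Peg3*, *Rasgrf1* and *Gnas*, whereas the mutant circle lies within the control range in *Peg10*, *Zim1* and *Dlk1* and above it in *Meg3*.

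The *Peg3* domain on chromosome 7 holds the paternally expressed *Peg3*, a zinc finger gene known for its part in maternal care, its paternally expressed neighbour *Usp29*, a deubiquitinase gene, and the maternally expressed zinc finger gene *Zim1*. *Peg3* (6656603 to 6683132, minus strand, NCBIM37) was measured at 3545, 3897 and 3365 CPM in controls and 3122, 2979 and 3242 CPM in mutants. Every mutant lay below every control, but the highest mutant was close to the lowest control. On the log2 scale mutants and controls differed by -0.21 ± 0.092 (SE, edgeR, adjusted p = 0.556). *Zim1* (6628154 to 6649161, minus strand) was measured at 64.3, 69.7 and 68.4 CPM in controls and 64.9, 44.9 and 45.9 CPM in mutants. Mutant replicate 1 was within the control range and the other mutants were below it. EdgeR gave a log2 fold change of -0.38 ± 0.14 (SE) and an adjusted p of 0.431. *Usp29* differed by -0.12 ± 0.10 (SE) on the log2 scale (adjusted p = 0.793, edgeR), with overlapping genotypes. The ratio of *Peg3* to *Usp29* counts was 12.4, 11.2 and 11.7 in the controls and 11.98, 10.9 and 10.4 in the mutants. That of *Peg3* to *Zim1* was 55.1, 55.9 and 49.2 against 48.1, 66.4 and 70.6. Both ratios overlapped between genotypes. *Peg3* and *Usp29* are transcribed in opposite directions, and the RefSeq windows of their starts share 263 bases, so that 1 printed window (GRCm38.p6, chr7:6730370-6730669, minus strand, 13 CG pairs in capitals) holds most of the start region of both.
Peg3: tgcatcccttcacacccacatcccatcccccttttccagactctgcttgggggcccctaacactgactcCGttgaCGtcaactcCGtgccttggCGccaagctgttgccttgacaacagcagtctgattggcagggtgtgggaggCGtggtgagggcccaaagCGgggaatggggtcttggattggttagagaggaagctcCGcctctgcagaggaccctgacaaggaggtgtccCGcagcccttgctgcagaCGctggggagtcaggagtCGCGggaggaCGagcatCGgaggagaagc

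*Peg10*, a gene derived from a retrotransposon and paternally expressed (chromosome 6, 4697306 to 4710514, plus strand, NCBIM37), was measured at 1827, 2095 and 1927 CPM in controls and 1847, 1097 and 1298 CPM in mutants. Mutant replicate 1 lay among the controls and the other 2 mutants lay far below them. Its log2 fold change in edgeR was -0.46 ± 0.18 (SE), with adjusted p = 0.480. *Sgce*, the epsilon-sarcoglycan gene transcribed from the other strand next to *Peg10* and also paternally expressed, varied less, with 70.9, 67.9 and 80.5 CPM in controls and 71.2, 74.1 and 73.7 CPM in mutants, which overlapped. On the log2 scale mutants and controls differed by -0.00041 ± 0.089 (SE, edgeR, adjusted p = 0.9998), and the sign turned with the setting. The ratio of *Peg10* to *Sgce* counts was 25.8, 30.9 and 23.9 in the controls and 25.9, 14.8 and 17.6 in the mutants, again with mutant replicate 1 among the controls.

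In the *Dlk1*-*Meg3* domain on chromosome 12, *Dlk1* is paternally expressed and encodes a membrane protein of the Notch ligand family, and *Meg3*, *Rian* and *Mirg* are maternally expressed noncoding RNAs. *Rian* and *Mirg* host small nucleolar RNAs and microRNAs. *Dlk1* (110691033 to 110701546, plus strand, NCBIM37) was measured at 846, 880 and 920 CPM in controls and 847, 687 and 708 CPM in mutants. Mutant replicate 1 was just above the lowest control and the other mutants were below all controls. EdgeR gave a log2 fold change of -0.24 ± 0.097 (SE) and an adjusted p of 0.507. *Meg3*, described with its values because it follows the same split, a choice made after they were seen, was measured at 2045, 2361 and 2010 CPM in controls and 2695, 1726 and 1588 CPM in mutants. Here mutant replicate 1 was the highest of the 6 libraries and the other mutants the lowest. Its log2 fold change in edgeR was -0.095 ± 0.19 (SE), with adjusted p = 0.929. The ratio of *Dlk1* to *Meg3* counts was 0.414, 0.373 and 0.458 in the controls and 0.314, 0.398 and 0.446 in the mutants. *Rian* and *Mirg* had log2 fold changes of 0.084 and -0.039, with overlapping genotypes.

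Mutant replicate 1 thus stood apart from the other mutants in *Peg10*, *Zim1*, *Dlk1* and *Meg3*. It was also the mutant with the lowest summed ventromedial nucleus markers, at 242 CPM against 553 and 718 CPM, as control replicate 1 was among the controls. All 8 markers were detected in every library, and 7 of them were lowest of the mutants in replicate 1, such as *Nr5a1*, the defining transcription factor of that nucleus, at 3.05 CPM against 18.9 and 24.2 CPM. The exception was the peptide gene *Tac1*, at 37.0 CPM in mutant replicate 1 against 28.1 and 38.6 CPM, below the 50.9, 59.97 and 40.1 CPM of the controls in every mutant. Mutant replicate 1 also held the highest sum of ARC neuron markers, at 1783 CPM against 1256 and 1345 CPM, with 10 of the 12 highest of the mutants there. Among the 10 were *Tac2*, at 281 CPM against 157 and 161 CPM, and *Cartpt*, at 369 CPM against 239 and 274 CPM. Both were higher in every mutant than in any control. Without mutant replicate 1 the log2 fold changes were -0.70 for *Peg10*, -0.57 for *Zim1*, -0.34 for *Dlk1* and -0.37 for *Meg3*. Without both replicates 1, an alternative chosen after seeing the data, they were -0.75, -0.61, -0.37 and -0.40, with adjusted p-values from edgeR of 0.0588, 0.0941, 0.233 and 0.281. Control replicate 1, with the lowest ventromedial sum of the controls, did not stand above them in these genes. It was the lowest control in *Peg10*, *Zim1* and *Dlk1*, at 1827, 64.3 and 846 CPM, and lay between the others in *Meg3*, at 2045 CPM. The part of the neighbouring nucleus or of ARC neurons in these genes was not tested.

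Of the paternally expressed genes outside these clusters, *Rasgrf1*, a Ras exchange factor of neurons (chromosome 9, 89804613 to 89921814, plus strand, NCBIM37), was measured at 963, 997 and 1146 CPM in controls and 930, 843 and 886 CPM in mutants. All mutants were below all controls, by a narrow margin for mutant replicate 1. On the log2 scale mutants and controls differed by -0.22 ± 0.092 (SE, edgeR, adjusted p = 0.514). *Impact*, a regulator of translation that opposes Gcn2, was measured at 807, 805 and 966 CPM in controls and 750, 737 and 789 CPM in mutants (-0.18 ± 0.094 in log2 fold change, SE, adjusted p = 0.622, edgeR). The mutants again lay below the controls, and control replicate 3 was the highest library. *Nnat*, the membrane proteolipid neuronatin (chromosome 2, 157385814 to 157388258, plus strand), was measured at 438, 523 and 515 CPM in controls and 394, 545 and 421 CPM in mutants, with overlapping genotypes (-0.12 ± 0.13 in log2 fold change, SE, adjusted p = 0.851, edgeR). Its host gene *Blcap*, within which it lies, showed a log2 fold change of -0.074 ± 0.093 (SE).

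In the Prader-Willi and Angelman domain, *Ndn*, the MAGE family gene necdin (chromosome 7, 69493163 to 69494814, plus strand, NCBIM37), was measured at 656, 633 and 656 CPM in controls and 595, 597 and 624 CPM in mutants. The spread within each genotype was small and the mutants were all lower, at 93.3% of the control mean. EdgeR gave a log2 fold change of -0.10 ± 0.075 (SE) and an adjusted p of 0.760. *Magel2*, its MAGE family neighbour, differed by -0.15 ± 0.13 (SE) on the log2 scale (adjusted p = 0.807, edgeR). *Ube3a*, the ubiquitin ligase expressed from the maternal copy in neurons, differed by 0.0054 ± 0.14 (SE, adjusted p = 0.996, edgeR), and the sign turned with the setting. It has an antisense transcript, whose reads cannot be told apart from its own without strand.

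*Gnas*, which encodes the stimulatory G protein subunit used by many peptide receptors (chromosome 2, 174109821 to 174172245, plus strand, NCBIM37), was measured at 2838, 2930 and 2768 CPM in controls and 2765, 2569 and 2598 CPM in mutants. Mutant replicate 1 was just under the lowest control and the other mutants were further below. Its log2 fold change in edgeR was -0.11 ± 0.083 (SE), with adjusted p = 0.774. Antisense transcripts share 22.0% of its exon bases, and its promoters, which differ in their imprint, were counted as 1 gene. *Grb10*, an adaptor that restrains insulin receptor signalling and is paternally expressed in neurons (chromosome 11, 11830511 to 11938686, minus strand), was measured at 465, 529 and 462 CPM in controls and 421, 415 and 452 CPM in mutants (-0.18 ± 0.085 in log2 fold change, SE, adjusted p = 0.593, edgeR). Mutant replicate 3 was only just below the lowest control.

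Among the maternally expressed genes, *Copg2*, a coatomer subunit gene (chromosome 6, 30697554 to 30846794, minus strand, NCBIM37), was measured at 113, 117 and 124 CPM in controls and 105, 106 and 109 CPM in mutants, all of them below the controls (-0.14 ± 0.076 in log2 fold change, SE, adjusted p = 0.622, edgeR). It shares 904 exon bases with the paternally expressed *Mest* on the opposite strand, and the libraries are not stated to keep strand, so reads there cannot be assigned to 1 of the pair. *Mest* itself showed a log2 fold change of 0.13 ± 0.18 (SE). *H19*, the noncoding RNA next to *Igf2* (chromosome 7, 149761434 to 149764048, minus strand), had counts of 10, 0 and 4 in the controls and 11, 11 and 13 in the mutants, or 0.670, 0 and 0.287 CPM against 0.908, 0.691 and 0.866 CPM. The mutants were all higher, but control replicates 2 and 3 were at or near the 3-count floor, and the log2 fold change of 1.38 had an SE of 0.77 (adjusted p = 0.654, edgeR).

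Of the remaining tested members, *Kcnq1ot1*, the noncoding RNA that runs antisense to *Kcnq1*, showed a log2 fold change of -0.27 ± 0.20 (SE), and *Inpp5f*, an inositol phosphatase gene, one of -0.16 ± 0.081 (SE). *Plagl1*, a zinc finger transcription factor, was at 0.14 ± 0.19 (SE), *Igf2r*, the receptor that clears IGF2, at 0.071 ± 0.082 (SE), and *Trappc9*, a vesicle trafficking gene with a maternal bias in brain, at 0.016 ± 0.094 (SE) on the same scale. *Commd1*, maternally biased in brain and low in the ARC at 6.61 ± 1.42 CPM (SD, n = 3) in the controls, was at 0.39 ± 0.21 (SE), and 31.6% of its exon bases are shared with other genes. All had overlapping genotypes and adjusted p-values of 0.618 or more with edgeR.

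In 3 members a single library set the fold change, and the values of *Cdkn1c* and *Igf2* are given for that reason, a choice made after they were seen. *Nap1l5*, an intronless paternally expressed gene of the nucleosome assembly protein family that lies within *Herc3* (chromosome 6, 58855228 to 58857120, minus strand, NCBIM37), was measured at 819, 861 and 160 CPM in controls and 802, 819 and 831 CPM in mutants. Control replicate 3 was far below the other 5 libraries, which lay close together. On the log2 scale mutants and controls differed by 0.41 ± 0.66 (SE, edgeR, adjusted p = 0.910), and -0.040 without control replicate 3. *Herc3* was measured at 145, 148 and 219 CPM in controls and 131, 141 and 133 CPM in mutants, so its highest library was the one in which *Nap1l5* was lowest. Such a drop was rare. Of the 2280 genes at 100 CPM or more in at least 5 libraries, 3 had 1 library at least 4-fold below the other 5, namely *Nap1l5* in control replicate 3 and *Cga* and *Chga* in control replicate 2. The start window of *Nap1l5* (RefSeq, GRCm38.p6, chr6:58907077-58907376, minus strand) is shown with its 17 CG pairs in capitals, because no other abundant member had 1 library this far below the rest.
Nap1l5: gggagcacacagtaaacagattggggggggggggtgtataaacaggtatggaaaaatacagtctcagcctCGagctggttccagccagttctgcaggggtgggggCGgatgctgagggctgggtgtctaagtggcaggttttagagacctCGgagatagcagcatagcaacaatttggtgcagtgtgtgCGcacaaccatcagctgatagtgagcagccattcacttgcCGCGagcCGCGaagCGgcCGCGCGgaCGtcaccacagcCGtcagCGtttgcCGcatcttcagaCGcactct

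**Figure D4:**
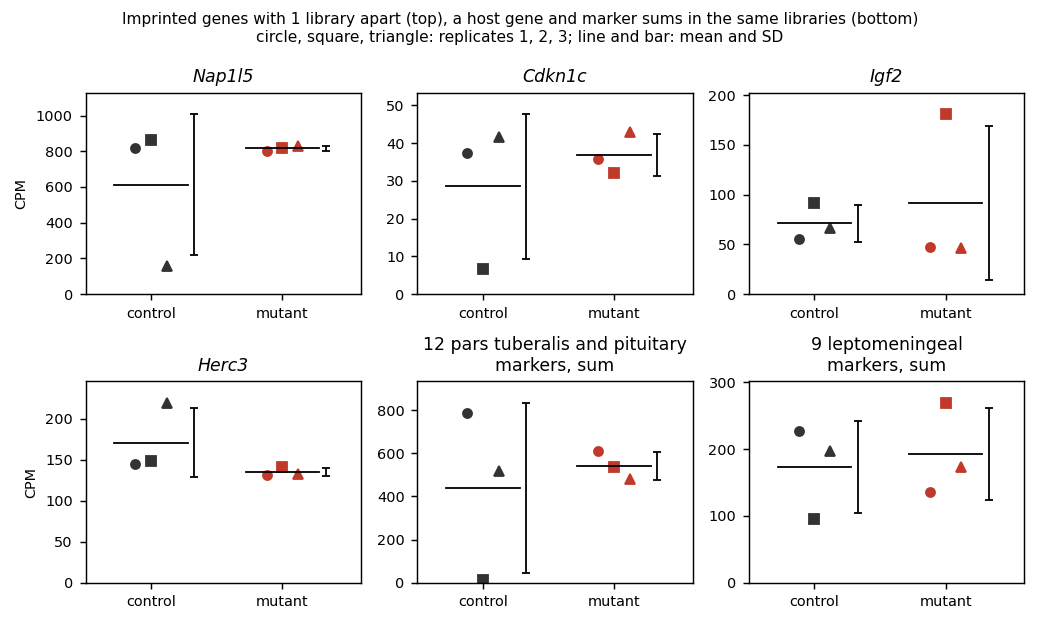
Level (CPM, axes from 0) of *Nap1l5*, *Cdkn1c* and *Igf2* in the top panels and of *Herc3*, the summed pars tuberalis and pituitary markers and the summed leptomeningeal markers in the bottom panels, in each control (dark) and mutant (red) library, with circles, squares and triangles for replicates 1, 2 and 3 and a line and bar for mean and SD. *Nap1l5* is low and *Herc3* high in control replicate 3, *Cdkn1c* and the pituitary sum are both low in control replicate 2, and *Igf2* and the leptomeningeal sum are both highest in mutant replicate 2, whereas in control replicate 2 *Igf2* is the highest and that sum the lowest of the controls.

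*Cdkn1c*, the maternally expressed cyclin-dependent kinase inhibitor p57 (chromosome 7, 150644255 to 150646955, minus strand), was measured at 37.3, 6.57 and 41.7 CPM in controls and 35.9, 31.98 and 43.0 CPM in mutants. Control replicate 2 was low and the other 5 libraries were alike, and the log2 fold change of 0.38 ± 0.69 (SE) became -0.094 without it. In the same library the 12 pars tuberalis and pituitary markers summed to 12.7 CPM, against 788 and 516 CPM in the other controls and 608, 537 and 478 CPM in the mutants. *Cga*, the glycoprotein hormone alpha subunit gene that leads that list, was at 3.26 CPM there and at 372 to 582 CPM elsewhere. None of the 12 was at 0 in all libraries and 4 were at 0 in at least 1. That library also held the lowest control sum of 9 endothelial and mural markers, at 165 CPM against 260 and 221 CPM, with 8 of the 9 lowest there. Its sum of 8 tanycyte and ependymal markers was the lowest too, at 497 CPM against 783 and 650 CPM, although only 3 of the 8 were lowest there.

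*Igf2*, the growth factor gene assigned to the paternal class (chromosome 7, 149836673 to 149852721, minus strand), was measured at 55.4, 91.8 and 66.7 CPM in controls and 47.4, 181 and 46.1 CPM in mutants. Mutant replicate 2 was above every control and the other mutants were below every control. The log2 fold change of 0.36 ± 0.67 (SE) became -0.61 without it. In brain *Igf2* is known from leptomeninges and choroid plexus, and which copy was read there was not measured. The 9 leptomeningeal markers summed to 227, 96.2 and 198 CPM in the controls and to 136, 269 and 173 CPM in the mutants, and the 7 choroid plexus markers to 287, 89.4 and 342 CPM and to 161, 483 and 117 CPM, both highest in mutant replicate 2. The sums did not follow *Igf2* in control replicate 2, which had the lowest sums and the highest *Igf2* of the controls. Of the 9 leptomeningeal markers, all were highest of the mutants in replicate 2, and 7 were lowest of the controls in replicate 2. *Slc6a13*, at 3.42, 8.20 and 3.44 CPM in the controls, and *Slc22a6*, at 2.28, 4.48 and 3.16 CPM, were instead highest of the controls there, as *Igf2* was. No marker of either list was at 0 in any library, and the part of these tissues in *Cdkn1c* and *Igf2* was not tested.

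The start windows of the members were rich in CG pairs. RefSeq windows of 300 bases were found for 28 of the 34 members (43 windows), and none was used for *Peg10*, *Sgce*, *Impact*, *H19*, *Cdkn1c* and *Trappc9*. The median window held 16 CG pairs, against 7 over all 32851 windows. The letters TGCCGC, the core of the motif that the imprint-protecting factor ZFP57 binds when methylated, or their reverse complement GCGGCA were found in 14 of the 43 windows (32.6%), belonging to 13 members, and in 11.6% of all windows. Some of these windows overlap, and with overlapping ones counted once the letters were in 12 of 39 stretches (30.8%). The member windows also hold more CG pairs, which these letters contain. The full estrogen response element GGTCANNNTGACC, which reads the same on both strands, was in 0 of the 43 windows and in 0.0700% of all windows. Such matches describe letters in these windows and say nothing of binding.

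Further imprinted genes and the genes that set and keep imprints were read from the same fit. Genes of the first list need not be imprinted in the ARC, which was not measured. Of 49 further imprinted genes, 39 were tested and 0 were called by edgeR or DESeq2. Before adjustment 2 were lower and 4 higher at p under 0.05, against 4.01% and 4.84% of all tested genes, and 21 of the 39 (53.8%) had a fold change below 0, against 49.0%. The smallest p-values were those of *Gab1*, a docking protein of growth factor receptors, *Gatm*, the first enzyme of creatine synthesis, and *H13*, a signal peptide peptidase gene. *Gab1* was measured at 153, 123 and 135 CPM in controls and 193, 167 and 159 CPM in mutants, all above the controls (0.33 ± 0.10 in log2 fold change, SE, adjusted p = 0.352, edgeR). *Gatm* was at 51.5, 75.7 and 54.9 CPM against 85.5, 80.6 and 81.0 CPM (0.44 ± 0.14 in log2 fold change, SE, adjusted p = 0.354, edgeR), with control replicate 2 nearest the mutants. Without that library it was called, with an adjusted p of 0.0159. *H13* was at 144, 147 and 147 CPM against 136, 111 and 114 CPM (-0.28 ± 0.092 in log2 fold change, SE, adjusted p = 0.384, edgeR).

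Of 25 genes that establish or keep imprints, 22 were tested, 0 were called by edgeR or DESeq2, and 18 (81.8%) had a fold change below 0, with a median of -0.077, against 49.0% of all tested genes and 68.3% of those at 100 CPM or more. *Eed*, a Polycomb subunit gene, was the 1 with an unadjusted p under 0.05, at 18.7, 16.3 and 17.1 CPM against 23.2, 19.4 and 23.6 CPM, all mutants above the controls (0.34 ± 0.13 in log2 fold change, SE, adjusted p = 0.440, edgeR). *Trim28*, the corepressor that ZFP57 recruits, was at 102, 89.6 and 102 CPM against 79.4, 91.3 and 87.8 CPM, with overlap (-0.18 ± 0.091 in log2 fold change, SE, adjusted p = 0.597, edgeR). *Dnmt3a*, a DNA methyltransferase gene, was at 147, 143 and 145 CPM against 138, 131 and 120 CPM, all mutants below the controls (-0.16 ± 0.080 in log2 fold change, SE, adjusted p = 0.6004, edgeR).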

How the data were processed

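ARC was microdissected from 3 control and 3 mutant females, and RNA libraries were made with a Nugen Ovation V2 kit, which is not stated to keep strand. The authors mapped the reads with TopHat2 2.1.0, counted them with HTSeq 0.6 and deposited raw counts for 24015 symbols per sample. The submitters' processing notes name mm9, whereas the paper's methods name NCBI37/mm10. The annotation, strand setting and overlap mode are not given in the sources used here. Positions were taken by symbol from GENCODE on NCBIM37 (32 of 34 members), and windows from RefSeq on GRCm38.p6.

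Genotypes were compared with edgeR 4.0.16 in R 4.3.3 (quasi-likelihood test, robust dispersions, TMM, default filter, 15236 genes), with Benjamini-Hochberg adjustment over all of them and a threshold of 0.05. With 3 against 3, an exact permutation test cannot go below 0.1. Alternatives were RLE scaling, DESeq2 1.42.0, limma voom (limma 3.58.1), minima of 1 count in any or 10 in every sample, a replicate block and samples left out. Adjusted p-values that DESeq2 did not give were kept out. The SE of a log2 fold change was its absolute value divided by the square root of edgeR's F statistic. RPKM divided CPM by the exon length in kilobases. No pair of libraries agreed within sampling noise (chi-square per degree of freedom 6.60 to 29.6), and floors cover counting error only. The test code was checked on simulated counts with large planted changes. Small changes and differences in dissection were not simulated, so their handling was not checked. Values in all samples are given for members with an unadjusted p under 0.05, with genotypes that do not overlap, or among the 8 highest per length, and for the 3 smallest p-values of a companion list. Members and lists were chosen with earlier results of these data known.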

Additional observations from a re-analysis of the deposited data

How the results depend on the processing

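Of the 31 tested members, 20 kept the sign of their fold change under every alternative and 11 changed it at least once. The number of genes called was 18 with edgeR, 191 with DESeq2, 106 with a minimum of 1 count in any sample, 123 with the replicate block, and 7 to 46 when 1 sample was left out. The number of members called was 0, and 1 (*Zdbf2*) with DESeq2, with the 1-count minimum and with the replicate block. In the companion lists it was 0, and 0 to 1 when 1 sample was left out (*Gatm* without control replicate 2). The cause was not tested.

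Both genotypes carry replicate numbers 1 to 3 in their labels. Deviations of same-numbered samples from their genotype means correlated across genes with r = 0.266, 0.0467 and -0.0183, so the samples were not treated as pairs, and mutant replicate 3 correlated better with control replicate 2 (0.202) than with its own number. With the replicate block the log2 fold change of *Sgce* was 0.0026, against 0.0056 with limma voom, 0.0040 with 10 counts in every sample, and -0.00041 as reported. That of *Ube3a* was -0.00077 with DESeq2 and -0.0045 with the 1-count minimum.

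Leaving out 1 sample, or both replicates 1, gave log2 fold changes from -0.61 to 0.68 for *Igf2*, -0.078 to 0.31 for *Plagl1*, -0.051 to 0.074 for *Sgce*, -0.041 to 0.27 for *Mest*, -0.040 to 0.74 for *Nap1l5*, -0.40 to 0.048 for *Meg3*, -0.034 to 0.19 for *Rian*, -0.29 to 0.18 for *Mirg*, -0.094 to 0.76 for *Cdkn1c*, -0.11 to 0.14 for *Ube3a* and -0.024 to 0.068 for *Trappc9*. With both replicates 1 left out *Plagl1* was at -0.078, *Rian* at -0.034 and *Trappc9* at -0.016. Of the 20 members that kept their sign, 12 moved by over 1.5 times with 1 sample out, none of them called. The ranges were -0.20 (without mutant replicate 3) to -0.027 (without control replicate 2) for *Usp29*, -0.27 (without mutant replicate 2) to -0.026 (without mutant replicate 1) for *Nnat*, -0.31 (without mutant replicate 1) to -0.035 (without mutant replicate 2) for *Magel2*, -0.45 (without mutant replicate 1) to -0.065 (without control replicate 3) for *Kcnq1ot1*, -0.12 (without mutant replicate 3) to -0.018 (without mutant replicate 1) for *Blcap*, and 0.75 (without control replicate 2) to 2.56 (without control replicate 1) for *H19*. Without control replicate 1 and without control replicate 3, *Impact* was at -0.22 and -0.087, *Rasgrf1* at -0.28 and -0.14, and *Igf2r* at 0.11 and 0.024. *Grb10* ranged from -0.22 (without mutant replicate 3) to -0.11 (without control replicate 2), *Commd1* from 0.22 (without mutant replicate 1) to 0.57 (without control replicate 1) and *Peg10* from -0.70 (without mutant replicate 1) to -0.31 (without mutant replicate 2). With 3 samples a genotype, single libraries weigh on these values, and *H19* was limited by its counts.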

Other observations

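Among the 39 further imprinted genes tested, 4 had every mutant below every control and 5 every mutant above every control, against 7.88% of all tested genes in each direction. *Peg13*, a paternally expressed noncoding RNA transcribed from within *Trappc9* and described after its values were seen, was measured at 275, 289 and 283 CPM in controls and 233, 265 and 252 CPM in mutants (-0.17 ± 0.079 in log2 fold change, SE, adjusted p = 0.561, edgeR's quasi-likelihood test). Its host *Trappc9* was at 39.3 ± 1.67 CPM (SD, n = 3) in the controls and 39.8 ± 2.57 CPM in the mutants. *Dio3*, which encodes the enzyme that inactivates thyroid hormone and lies at the far end of the *Dlk1*-*Meg3* domain, was also picked after its values were seen. It was measured at 0.335, 0.524 and 0.359 CPM in controls and 1.32, 0.817 and 1.07 CPM in mutants (1.35 ± 0.46 in log2 fold change, SE, adjusted p = 0.394, edgeR), a handful of counts above the 3-count floor.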
